A study of Mus musculus with 4 samples.

Results

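A medulloblastoma taken from a Math1-Cre;SmoM2 mouse at 1 month of age was compared with one taken at 2 months, gene by gene. The comparison covers 2 of the 4 arrays of the study and 19103 autosomal genes, read by 20871 of the 35557 probe sets on the array. A gene was included where a probe set was annotated to it and to no other symbol. The other arrays, shown beside these for reference, were a wild-type cerebellum at 2 months and a medulloblastoma of a PtchLacZ/+ mouse at 5 months. All mice shared a mixed background of C57BL/6 and C3H, and each group was represented by 1 array. The labels do not say whether a sample came from 1 animal or from a pool, so age cannot be told apart from the individual animal, its tumour or its array, and no test was possible. In Math1-Cre;SmoM2 mice, Cre recombinase under the Math1 (Atoh1) promoter switches on SmoM2, an active form of Smoothened. The model is thus limited to cells with a history of Math1 expression. The PtchLacZ/+ mouse carries a lacZ allele at 1 copy of Ptch1 in all cells.

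Smoothened is the membrane protein that passes the Hedgehog signal on to the Gli transcription factors, and Ptch1 is the receptor that keeps it silent when no ligand is bound. During cerebellar development, Sonic hedgehog drives the division of granule neuron progenitors in the outer layer of the cerebellum, after which the cells leave the cycle, migrate inwards and mature into granule neurons. Medulloblastoma of the Hedgehog type arises when this lineage keeps dividing. Such a tumour holds progenitor-like and differentiating neuronal cells together with blood vessels, macrophages and remnants of the normal cerebellum.

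Levels are given on the deposited log2 scale, on which a difference of 1 is a doubling, and a difference is always the 1-month value minus the 2-month value. The tumour label was borne out by the marker of the lineage: Atoh1 stood at 11.39 at 1 month, 11.84 at 2 months, 4.85 in the cerebellum and 11.98 in the PtchLacZ/+ tumour. The lower quartile of autosomal genes was 5.20 in the 1-month array and 5.21 in the 2-month array. A gene under it may be no more than background, and where 1 array is that low the true difference may be larger than the one printed, which is then called a lower limit. Genes of the sex chromosomes were left out because the arrays differed in them. The 1-month sample had Y-linked Eif2s3y at 8.17 and Xist at 4.16, whereas the 2-month sample had Eif2s3y at 3.63 and Xist at 9.50. The labels give no sex, and age and sex cannot be told apart here.

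Over the 19103 genes the difference had a median of -0.08 and an SD of 0.45, and Pearson's r between the levels of both arrays was 0.975. The difference was above 0 for 7645 genes and below 0 for 11457. The 9551 genes above the median level of 6.83 had a median of -0.15. Counts above or below 0 in the lists are read against this base. At least 1 log2 unit separated the ages for 379 genes that were higher at 1 month, which is 1.98% of the genes, and for 316 that were higher at 2 months, which is 1.65%. Counts of list members past 1 log2 unit are read against these shares. The genes nearest to this threshold were Mir3068 (1.01) and Pcdh7 (1.00, just short of it) on the 1-month side. On the 2-month side they were Mrpl51 (-1.001) and Myl12a (-0.9998, just short of it). The split depended on the scaling. Of the genes past 1 log2 unit, 54.5% were higher at 1 month in the deposited values, 43.6% after quantile normalization, 65.1% after median centring, and 72.3% after removal of the trend with level. Quantile normalization moved the median over all genes to -0.20. A measure of part of the technical error came from 741 genes read by exactly 2 probe sets. Their disagreement gave an SD of 0.35 for the difference of a single probe set. An error that both probe sets of a gene share on an array cancels in it. That SD was 0.29 for the 399 of these genes with both probe sets above the median level of 6.83. Among 1021 olfactory receptor genes, a family with little expression in cerebellum, the SD was 0.24 and 1 gene was past 1 log2 unit. These errors include neither the spread between animals nor an error that the probe sets of an array share.

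**Figure D1:**
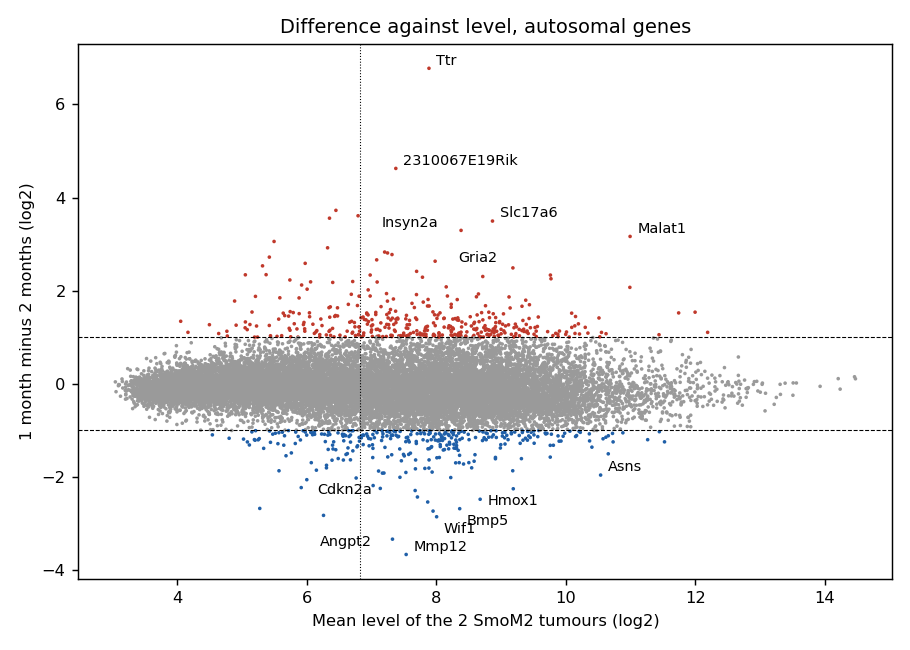
Log2 difference of each autosomal gene (1 month minus 2 months) against its mean log2 level in the 2 SmoM2 tumours, 1 array each. Dashed lines mark 1 log2 unit, the dotted line marks the median level of 6.83, and the 379 red and 316 blue genes are those past the dashed lines. Ttr stands highest at 6.78 and Mmp12 lowest at -3.66.

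The blood vessel genes stood out among those higher at 2 months. Of 18 measured endothelial genes, 9 were at least 1 log2 unit higher at 2 months and none at 1 month, with a median difference of -0.99 against -0.08 for all genes. Mural cells are the pericytes and smooth muscle cells that wrap vessels. Of their 14 genes, 8 were past that mark at 2 months and none at 1 month, with a median of -1.13. The shares past the mark at 2 months were 50% (endothelial) and 57.1% (mural), against 1.65% of all genes. Angpt2, the angiopoietin that destabilises vessels during remodelling, measured 5.66 at 1 month and 8.99 at 2 months, against 5.28 in the cerebellum and 5.69 in the PtchLacZ/+ tumour. The 2-month tumour was thus alone in its high level, by 3.33 log2 units over the 1-month tumour. Esm1, a product of endothelial tip cells, was at 4.97 and 7.03 at 1 and 2 months, and at 5.01 and 4.63 in the cerebellum and the PtchLacZ/+ tumour. All but the 2-month level lie under the lower quartile, so its difference of -2.06 is a lower limit.

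Markers of the endothelium as a whole differed as well, though by less. Pecam1, an adhesion molecule of endothelial junctions, was at 6.30 at 1 month and 7.63 at 2 months, Cdh5 (VE-cadherin) at 6.48 and 7.56, and Cldn5, the tight junction claudin of brain vessels, at 7.65 and 8.81. In the cerebellum the same 3 genes were at 6.88, 6.60 and 7.80, and in the PtchLacZ/+ tumour at 6.40, 6.58 and 7.72. Each was thus higher in the 2-month tumour than in any other array. Emcn (endomucin) differed by -1.60. By contrast, Tek, the angiopoietin receptor, differed by 0.15, and Abcb1a, an efflux pump of the blood-brain barrier, by 0.05. Adgrl4, an adhesion receptor of endothelial cells outside the list, was at 6.58 and 9.31, with 8.34 in the cerebellum. Cd34, found on endothelial and blood progenitor cells, was at 7.22 and 9.23.

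Mural genes followed the same direction. Acta2, smooth muscle actin, was at 6.58 at 1 month, 8.48 at 2 months, 7.92 in the cerebellum and 6.77 in the PtchLacZ/+ tumour. Vtn (vitronectin) was at 8.25 and 10.11 in the SmoM2 tumours, and Rgs5, a regulator of G protein signalling found in pericytes, at 7.84 and 9.36. Pdgfrb, the receptor that defines pericytes, differed by -1.02 and Myl9, a myosin light chain of smooth muscle, by -1.24. Myh11, the smooth muscle myosin heavy chain, differed by 0.07 and stood at 5.51 and 5.44. In bulk tissue, fewer cells of a type and less RNA per cell cannot be told apart.

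Another set, caveolae and annexins, was put together after its values had been seen and describes the same array. All 13 measured members were lower at 1 month, 7 of them by at least 1 log2 unit, with a median of -1.09. Anxa1 (annexin A1) was at 6.01 and 8.26 at 1 and 2 months, Cav1 (caveolin 1, the coat protein of caveolae) at 6.23 and 8.15, and Anxa2 at 6.63 and 8.28. Ligands of vessel growth were assembled in the same way. Pgf, placental growth factor, was at 6.53 at 1 month, 8.82 at 2 months, 5.76 in the cerebellum and 7.71 in the PtchLacZ/+ tumour. Kdr, the main VEGF receptor, differed by -1.14. Vegfa itself, named here after its value was seen, differed by only -0.36, and Adm (adrenomedullin), the 1 of 16 hypoxia response genes past 1 log2 unit, differed by -1.37. The 16 hypoxia genes had a median of -0.43, with 15 of them below 0.

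The largest difference towards 2 months was in a macrophage gene. Mmp12, the macrophage elastase, measured 5.70 at 1 month, 9.36 at 2 months, 5.62 in the cerebellum and 5.99 in the PtchLacZ/+ tumour, a difference of -3.66. Among 19 genes of border and activated macrophages, 5 were at least 1 log2 unit higher at 2 months and none at 1 month, and the median was -0.54. The other 4 were Itgax (CD11c, -1.58), Lgals3 (galectin 3, -1.30), Clec7a (the beta-glucan receptor dectin 1, -1.12) and Msr1 (a scavenger receptor, -1.10), which are known in activated and lipid-handling macrophages. Of the 19 genes, 14 were below 0 and 5 above 0. Those above 0 included Mrc1 (the mannose receptor) and Lyve1, which are markers of resident border macrophages. Mrc1 was at 6.26 and 5.35 at 1 and 2 months, and Lyve1 at 5.95 and 5.57. Both were under the median level of all genes in each tumour, and they do not stand for border markers as a class. None of the 16 microglial genes reached 1 log2 unit, and their median was -0.36. The widest were Tyrobp, a signalling adaptor, at -0.91, and C1qb, a complement subunit, at -0.79. Csf1r, the receptor on which macrophages depend, was at 8.41 and 8.35 and Cx3cr1 at 8.32 and 8.29.

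The members were searched for a sequence feature of known meaning in 2 of these groups. AP-1, the Fos and Jun dimer, binds TGACTCA, and the search ran on both strands of the 250 bases before each gene start in RefSeq (GRCm38.p6). A match was found in 3 of 22 promoter entries of the macrophage list (13.6%), Mmp12 among them, and in 4.46% of 32851 promoters. The amino acid group described below had a similar share, 3 of 25 entries (12%), and the mural list had 0 of 10. The CArG box, the site of serum response factor in smooth muscle genes, was found in 1 of 10 promoter entries of the mural list, that of Myl9, and in 1.47% of all promoters. It was also found in 1 of the 22 entries of the macrophage list (4.55%) and in 0 of the 25 of the amino acid group. A match describes letters only. These are the sequences of both, with the match in capitals.
Mmp12, chr9:7347124-7347373, plus strand: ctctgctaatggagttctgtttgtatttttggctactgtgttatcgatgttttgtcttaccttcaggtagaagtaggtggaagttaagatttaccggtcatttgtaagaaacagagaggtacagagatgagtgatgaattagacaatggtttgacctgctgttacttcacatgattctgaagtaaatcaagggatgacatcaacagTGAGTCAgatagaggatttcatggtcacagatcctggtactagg
Myl9, chr2:156775214-156775463, plus strand: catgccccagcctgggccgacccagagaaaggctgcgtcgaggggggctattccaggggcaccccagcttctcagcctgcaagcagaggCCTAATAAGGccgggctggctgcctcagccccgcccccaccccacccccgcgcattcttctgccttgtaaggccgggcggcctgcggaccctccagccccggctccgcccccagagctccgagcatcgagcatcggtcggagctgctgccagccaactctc

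Wif1, Bmp5 and Fgf5, which encode secreted proteins, were also among the 15 genes with the widest differences towards 2 months. Wif1, a secreted Wnt inhibitor, was at 6.58 at 1 month, 9.43 at 2 months, 6.59 in the cerebellum and 5.67 in the PtchLacZ/+ tumour. Bmp5, a bone morphogenetic protein, was at 7.02 and 9.70 at 1 and 2 months and at 8.28 and 5.43 in the other arrays in that order. Fgf5, a fibroblast growth factor, was at 6.60 and 9.13. No other gene of the Wnt list (21 measured, median -0.06) or of the BMP list (19 measured, median -0.03) was past 1 log2 unit. Hmox1, the enzyme that degrades haem, was at 7.44 and 9.91, and Krt10, an epithelial keratin, at 8.06 and 10.31 with 9.82 in the PtchLacZ/+ tumour. Hmgcll1, an enzyme that cleaves hydroxymethylglutaryl-CoA, differed by -2.43 and the orphan receptor gene Gpr179 by -2.18. Dll3, an atypical Notch ligand, was the 1 of 15 Notch genes past the mark, at 6.86 and 8.50.

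**Figure D2:**
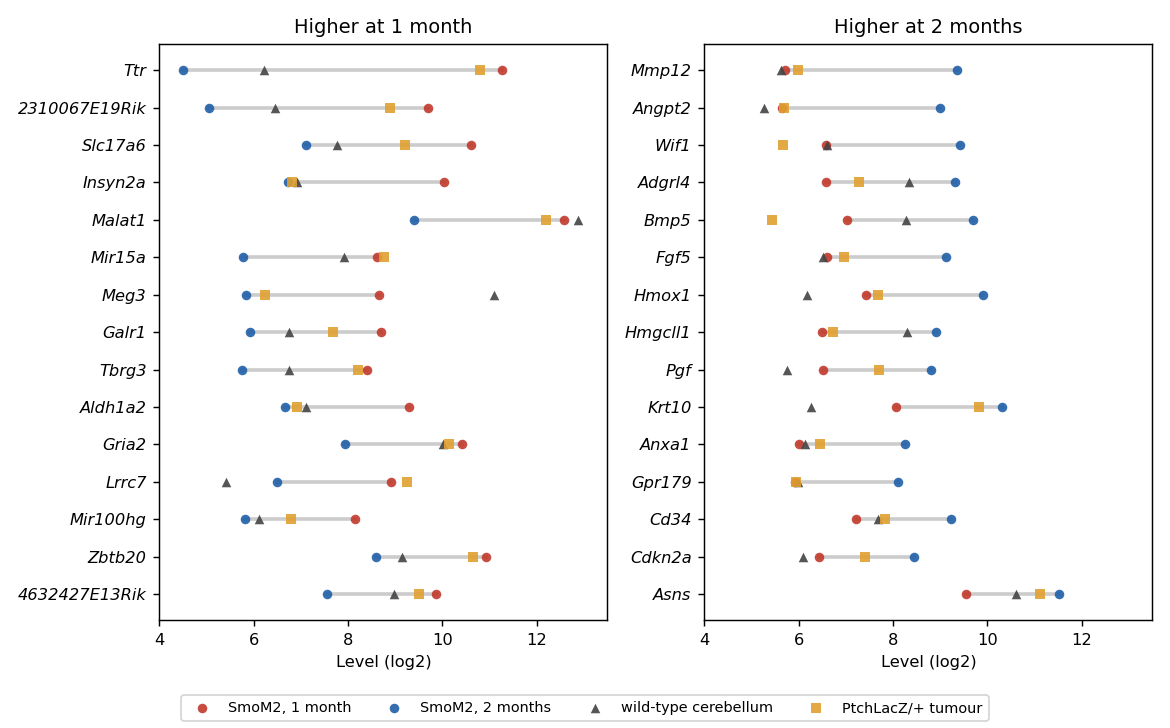
Log2 level of the 15 genes with the widest difference in each direction among genes above the median level, in each of the 4 arrays (1 array a point). Grey bars join the SmoM2 tumours. In the panel of genes higher at 2 months, the blue point of the 2-month tumour lies to the right of the 3 other arrays for every gene, and for Ttr the 1-month tumour (11.27) and the PtchLacZ/+ tumour (10.81) lie close together.

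Cell cycle inhibitors were also higher at 2 months. Cdkn2a, the locus of p16Ink4a and p19Arf, was at 6.44 at 1 month, 8.44 at 2 months, 6.09 in the cerebellum and 7.41 in the PtchLacZ/+ tumour. Its neighbour Cdkn2b (p15Ink4b) was at 6.96 and 8.20, and Plk2, a p53-responsive kinase gene, at 6.74 and 8.25. Of 15 measured CDK inhibitors and p53 targets, 4 were at least 1 log2 unit higher at 2 months, 13 were below 0, and the median was -0.55. Mdm2, a direct p53 target, was at 8.48 and 8.51.

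Most genes of DNA replication were slightly higher at 2 months, while the mitosis list lay nearer to genes above the median level in general. The difference between both lists was not tested. Of 28 replication genes, 27 were below 0, with a median of -0.58, and Mcm2 (-1.14, a subunit of the replicative helicase) and Rrm2 (-1.01, a subunit of ribonucleotide reductase) were the 2 past 1 log2 unit. The array of the PtchLacZ/+ tumour stood at Mcm2 11.04, close to the 11.19 at 2 months and above the 10.05 at 1 month. The 26 mitosis genes had a median of -0.27, or -0.10 after removal of the trend with level, and 19 were below 0. Of all 19103 genes 11457 were below 0, and those above the median level had a median of -0.15. Mad2l1, a spindle checkpoint protein that lies on chromosome 6, was the 1 gene past the mark (-1.11). Mki67, the proliferation marker, went the other way, with 11.01 at 1 month and 10.20 at 2 months, and is named here after its value was seen.

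A group concerned with amino acids was assembled after the values were seen, starting from Asns. Asns encodes asparagine synthetase, which cells induce through the transcription factor Atf4 when amino acids are short. It was at 9.56 at 1 month, 11.52 at 2 months, 10.60 in the cerebellum and 11.11 in the PtchLacZ/+ tumour, so the 1-month tumour was the lowest of the 4. Phgdh, the first enzyme of serine synthesis, was at 8.34 and 9.65, and Mthfd2, a mitochondrial folate enzyme, at 8.10 and 9.32. Of 27 measured genes of this group 24 were below 0, 5 by at least 1 log2 unit, and the median was -0.57. Since the group was chosen for these values, the count describes it and tests nothing. Asns and Mthfd2 lie on chromosome 6, whose genes as a whole were higher at 2 months. Asns carries the nutrient-sensing response element NSRE-1, TGATGAAAC, which was found on either strand in 0.213% of 32851 promoters. Of the 25 promoter entries of the group only that of Asns had it. Because the group was started from Asns, this match says nothing about the group. The 250 bases before the Asns start, with the element in capitals, read as follows in GRCm38.p6.
Asns, chr6:7693210-7693459, minus strand: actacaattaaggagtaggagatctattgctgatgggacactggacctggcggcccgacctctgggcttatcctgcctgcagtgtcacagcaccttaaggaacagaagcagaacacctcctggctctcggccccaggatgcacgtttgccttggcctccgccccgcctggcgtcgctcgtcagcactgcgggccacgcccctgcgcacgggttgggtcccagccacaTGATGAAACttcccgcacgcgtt

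Among the genes higher at 1 month, Ttr (transthyretin) came first. It was at 11.27 at 1 month and 4.50 at 2 months, with 6.23 in the cerebellum and 10.81 in the PtchLacZ/+ tumour. The 2-month level lies under the lower quartile, so the difference of 6.78 is a lower limit. Ttr is the chief secreted product of the choroid plexus, the epithelium that makes cerebrospinal fluid, and the other choroid plexus genes were read beside it. Of 18 measured, 11 were above 0 with a median of 0.24, and 2 were past 1 log2 unit at 1 month (Ttr and the homeobox gene Otx2, at 9.18 and 8.10) and 1 at 2 months (Cldn1, at 4.92 and 5.93). The defining markers Folr1 (6.19 and 5.80), Aqp1 (6.69 and 6.45) and Kl (5.52 and 4.77) were under the median level of all genes, 6.83, in both tumours. The median level of the list was 5.78 at 1 month, 5.37 at 2 months, 5.66 in the cerebellum and 5.68 in the PtchLacZ/+ tumour. The part of choroid plexus tissue in the Ttr values was not tested beyond these levels. 2310067E19Rik, a noncoding transcript of unstated function, came next, with 9.69 and 5.06, the latter again under the lower quartile.

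The next genes included several of neuronal signalling. Slc17a6 encodes the vesicular glutamate transporter VGLUT2, which loads glutamate into synaptic vesicles of immature granule neurons and of many hindbrain neurons. It was at 10.62 at 1 month, 7.12 at 2 months, 7.77 in the cerebellum and 9.22 in the PtchLacZ/+ tumour. Both tumours other than the 2-month one were thus above the cerebellum. Insyn2a, which encodes a protein of inhibitory synapses, was at 10.03 at 1 month and between 6.73 and 6.92 in the other arrays. Galr1, a galanin receptor, was at 8.70 and 5.93, and Lrrc7 (densin), a postsynaptic scaffold, at 8.90 and 6.49. Aldh1a2, the enzyme that makes retinoic acid and a marker of meninges, was at 9.30 at 1 month and between 6.66 and 7.11 elsewhere. Of the 22 meningeal genes it was the 1 past the mark at 1 month, while Mgp (-1.17) was past it at 2 months, and the list's median was -0.05. Zbtb20, a zinc finger repressor of neural progenitors, was at 10.93 and 8.59. Slc17a6 is also listed among 18 brainstem and midbrain genes, of which Th (tyrosine hydroxylase, 6.92 and 8.73) was the other past the mark, in the opposite direction, and the list's median was -0.09.

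Apart from the lists put together after values were seen, voltage-gated sodium and calcium channels had the highest median. Of 19 measured subunits, 10 were at least 1 log2 unit higher at 1 month and none at 2 months, with a median of 1.19. The 10 are 52.6% of the list, against 1.98% of all genes. Cacna1a, the pore of P/Q-type calcium channels, was at 9.11 at 1 month, 7.23 at 2 months, 10.65 in the cerebellum and 7.60 in the PtchLacZ/+ tumour. Scn2a, an axonal sodium channel, was at 8.70, 7.03, 11.95 and 7.98 in the same order, and Scn8a at 8.72, 7.17, 9.20 and 8.19. The 2-month tumour was the lowest of the 4 arrays in all 3.

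Ionotropic transmitter receptors had a median of 0.61, with 16 of 18 above 0 and 3 past 1 log2 unit, all at 1 month. Gria2, the AMPA receptor subunit that limits calcium entry, was at 10.43 at 1 month and 7.94 at 2 months, against 10.02 in the cerebellum and 10.15 in the PtchLacZ/+ tumour. The kainate receptor subunit gene Grik2 differed by 1.28 and Grin2b, an NMDA receptor subunit of immature neurons, by 1.09. Synaptic vesicle and release genes had a median of 0.62, with 18 of 19 above 0 and 5 past the mark. Pclo (piccolo, a scaffold of the active zone) was at 8.65 and 6.73, and the active zone genes Rims1 at 7.83 and 6.30 and Rims2 at 8.79 and 7.58. Of 22 potassium channel genes, 4 were past the mark at 1 month and none at 2 months, with a median of 0.27. The widest were Kcnb2 (7.75 and 5.86), Kcnh7 (8.71 and 7.23) and Kcnh5 (8.16 and 6.96), each of them lower in the cerebellum (5.39, 6.04 and 5.26) than in the 1-month tumour.

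Most of the channel, receptor and release genes named above were also high in the normal cerebellum, so markers of its cell types were read beside them. None of 15 Purkinje cell genes reached 1 log2 unit. Their median was 0.29, 11 were above 0, and the differences ran from -0.40 to 0.98. The mean level of the list was 8.01 at 1 month, 7.68 at 2 months and 10.54 in the cerebellum. Calb1 (calbindin) was at 8.05 and 7.96, and Ppp1r17 at 5.66 and 5.75, far under their levels of 11.92 and 10.60 in the cerebellum. Interneuron genes had a median of 0.00 and myelin genes of 0.00, and none of either list was past 1 log2 unit. Mature granule neuron genes had a median of 0.41, with 16 of 21 above 0. Gabra6, the GABA receptor subunit of mature granule neurons, was at 7.97 and 7.40 in the SmoM2 tumours, against 12.24 in the cerebellum. Only Reln (reelin, 10.90 and 8.64) and Fat2 (a giant cadherin, 7.70 and 6.32) were past the mark there. The part of residual cerebellum in the channel and synapse values was not tested beyond these levels.

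**Figure D3:**
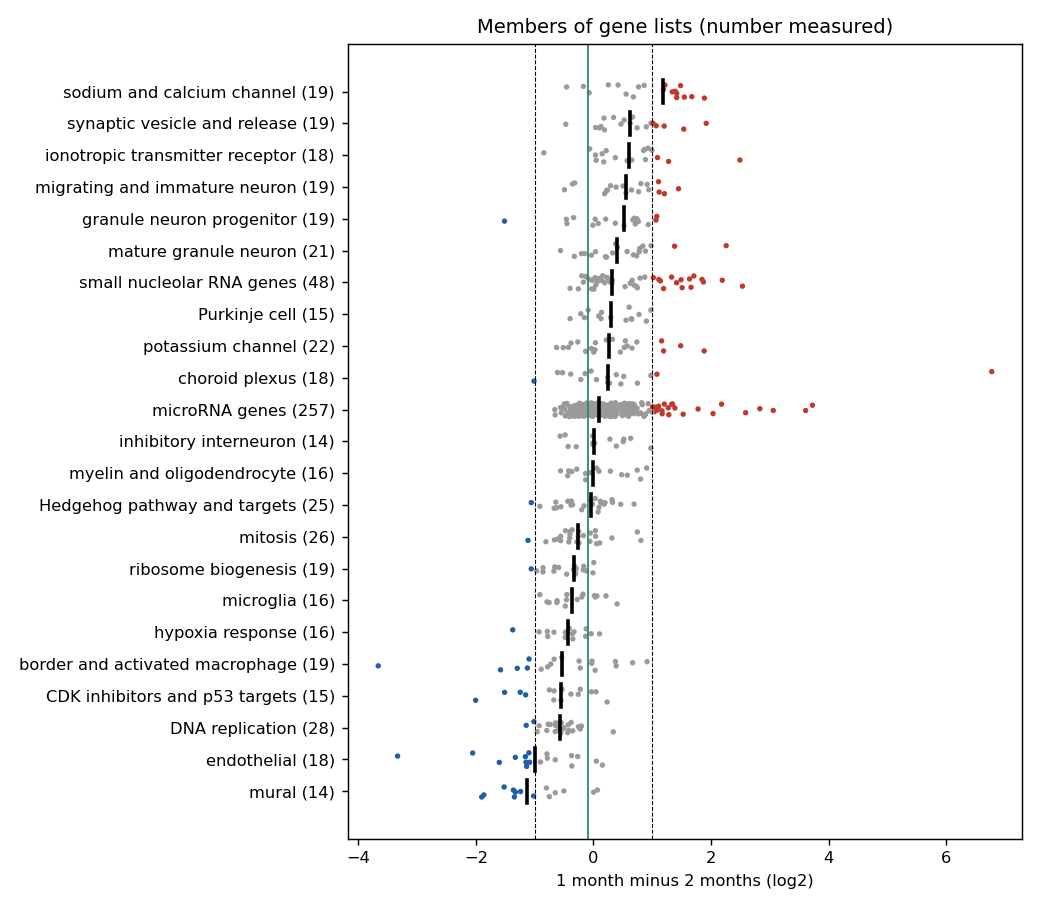
Log2 difference (1 month minus 2 months) of each measured member of 23 gene lists, with the list's median as a black bar and the number measured in brackets. The green line is the median of all genes (-0.08) and dashed lines mark 1 log2 unit; mural (-1.13) and endothelial (-0.99) lists lie at the bottom, and sodium and calcium channels (1.19) at the top.

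Genes of the granule lineage were moderately higher at 1 month. The 19 measured genes of migrating and immature neurons had a median of 0.55, 16 were above 0, and 4 were past 1 log2 unit at 1 month. Cntn2 (the adhesion molecule TAG-1 of premigratory granule cells) was at 10.87 and 9.43, Sema6a, a guidance cue of the same cells, at 10.06 and 8.85, and Mapt (tau) at 9.03 and 7.91. For the 19 progenitor genes the median was 0.52, with 14 above 0. Meis1 (11.16 and 10.08) and Nhlh2 (8.37 and 7.31), both transcription factors, were past the mark at 1 month. Mfap4, a matrix protein, was past it at 2 months (6.82 and 8.33). Atoh1 itself lay on the 2-month side with a difference of -0.45, and the genes of its chromosome 6 above the median level had a median of -0.45 as well.

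The Hedgehog pathway itself differed little. Of 25 measured members, 11 were above 0 and 14 below, the median was -0.05. It turned positive under other scalings, to 0.06 after quantile normalization and 0.14 after removal of the trend with level. Among the upstream parts, Ptch1 differed by 0.32, Smo by -0.67 and the inhibitor Sufu by 0.09, and Smo lies on chromosome 6. Whether its probe set also detects the SmoM2 transgene was not determined. The coreceptors Boc, Gas1 and Cdon differed by -0.02, -0.36 and -0.55. Of the transcription factors, Gli1 differed by 0.08, Gli2 by 0.12 and Gli3 by 0.69. Of the targets, Hhip, a decoy receptor that binds the ligand, was the only one past 1 log2 unit. It was at 7.61 at 1 month, 8.67 at 2 months, 6.29 in the cerebellum and 7.90 in the PtchLacZ/+ tumour. Ccnd1 (cyclin D1) differed by -0.91, Ccnd2 by 0.03, Mycn by 0.32 and Sfrp1 by 0.46. The ligand gene Shh was low in both, at 6.12 and 6.55.

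Other lists had few members past 1 log2 unit. Astrocyte genes (20 measured, median -0.18) had Aldh1l1 at 2 months (-1.29), and oligodendrocyte precursor genes (12, median 0.09) had Gpr17 at 1 month (1.11). Neutrophil and monocyte genes (17, median -0.05) had Vcan at 1 month (1.10), lymphocyte genes (16, median -0.19) had Il7r just past the mark at 2 months, and erythroid genes (8, median -0.21) had Car2 at 2 months (-1.35). Vcan and Car2 are also expressed by glial cells. Antigen presentation (13, median -0.29), interferon response (20, median -0.19), ependymal cilia (20, median -0.11), skeletal muscle (16, median -0.08) and cholesterol synthesis (16, median -0.08) had none, nor did the 166 vomeronasal receptors (median -0.09). Only 4 of the 13 antigen presentation genes lie outside chromosomes 6 and 17, and without these chromosomes the median was -0.03. Immediate early genes (25, median -0.40) had Ccn1 (-1.12) and Nr4a1 (-1.02) at 2 months. Heat shock and unfolded protein genes (18, median -0.41) had Asns and, just past the mark, Hspb1 at 2 months, glycolysis (13, median -0.33) had Pfkl (-1.02), and ribosome biogenesis (19, median -0.33) had Fbl (-1.06). Oxidative phosphorylation had none past the mark but 23 of 24 below 0 (median -0.36), and cytoplasmic ribosomal proteins had Rpl36 (-1.24) and 46 of 50 below 0 (median -0.37). Segments of immunoglobulin and T cell receptors (17, median -0.28, 3 at 2 months) had median levels of 4.34 and 5.17 and were not shown to be above background. Of these, 8 lie outside chromosomes 6 and 17, and without these chromosomes the median was -0.04. Clustered protocadherins (22, median 0.37) had 2 past the mark at 1 month and 1 at 2 months.

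Among genes over 1 kb, the difference went with the genomic length of the gene. Among genes above the median level, the median was -0.37 for 940 genes of 1 to 5 kb and -0.31 for 3014 genes of 5 to 20 kb. It was 0.08 for 1418 genes of 50 to 100 kb, 0.37 for 412 genes of 200 to 500 kb and 0.56 for 101 genes over 500 kb. At least 1 log2 unit higher at 1 month were 5 of the 940 genes of 1 to 5 kb and 25 of the 101 over 500 kb, which is 0.532% and 24.8%. At 2 months it was 41 and 1 of them. The 146 genes under 1 kb did not lie on this order, with a median of 0.01, 16 (11.0%) at least 1 log2 unit higher at 1 month and 7 (4.79%) at 2 months. Across the 9405 genes over 1 kb, Pearson's r with log10 length was 0.40 and Spearman's rho 0.42. These are genes of the same 2 arrays and not independent replicates. The difference of the PtchLacZ/+ tumour from the 2-month tumour, which shares the 2-month array, was 0.38 over 500 kb and -0.32 at 1 to 5 kb. The same tumour differed from the 1-month one by -0.13 and 0.05 in those classes. The cerebellum differed from the 2-month tumour by 0.56 and -0.35 in them, and from the 1-month tumour by 0.24 and -0.02. Many channel and synapse genes are long. A trend with length was then fitted over all 19103 genes and removed. The sodium and calcium channel list then had a median of 0.97, synaptic release 0.57, endothelial -0.93 and mural -1.01. DNA replication went to -0.41 and oxidative phosphorylation to -0.19. The classes above hold only genes above the median level, so this fit need not remove their trend in full. The part of length in these list medians was thus not settled. RNA quality was not measured in these values, and its part in the trend was not tested.

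**Figure D4:**
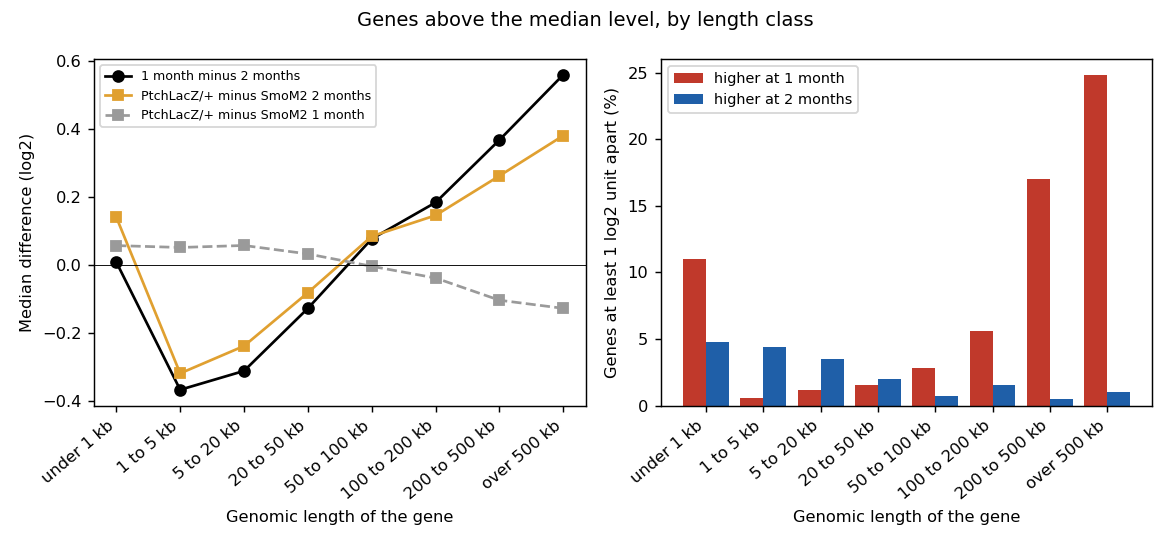
Genes above the median level in classes of genomic length, from under 1 kb (146 genes) to over 500 kb (101 genes). Left, median log2 difference between pairs of tumour arrays, with the 1-month against 2-month line going from -0.37 at 1 to 5 kb to 0.56 over 500 kb. Right, percentage of genes in each class at least 1 log2 unit higher at 1 month (red) or at 2 months (blue), reaching 24.8% in red.

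Several of the genes with the widest differences towards 1 month were noncoding, although the 81 long noncoding RNA genes above the median level had a median of 0.05. Malat1, a long RNA of nuclear speckles, was at 12.57 at 1 month and 9.41 at 2 months, with 12.88 in the cerebellum and 12.21 in the PtchLacZ/+ tumour, so the 2-month tumour was the low one of 4. It belongs to a list of 10 measured nuclear long noncoding RNAs, put together after their values were seen, with a median of 1.53 and 5 past 1 log2 unit at 1 month. Meg3, an imprinted long noncoding RNA, was at 8.65, 5.84, 11.10 and 6.24 in the same order, and Mir100hg, a microRNA host, at 8.15, 5.81, 6.11 and 6.79. Also among the 15 widest were Tbrg3 (8.41 and 5.75) and 4632427E13Rik (9.87 and 7.56), both noncoding or of unknown function. Small nucleolar RNAs guide the chemical modification of ribosomal and spliceosomal RNA and are mostly cut from introns of host genes. Of 48 measured, 15 were at least 1 log2 unit higher at 1 month, none at 2 months, and the median was 0.32. The 15 are 31.2% of them, against 1.98% of all genes and 20.9% of the 12147 probe sets with no gene symbol. Snord37 (6.58 and 4.05), Snora75 (7.15 and 4.96) and Snord14e (9.55 and 7.68) were the widest, the first pair with 2-month levels under the lower quartile. Their hosts Eef2, Ncl and Hspa8 differed by -0.08, -0.30 and 0.02. Over the 27 snoRNA genes inside a single measured host, the median was 0.87 for the snoRNA and -0.20 for the host, and the snoRNA had the higher difference in 24.

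MicroRNA genes were read by probe sets for the gene locus, which detect precursor or primary transcripts and not the mature microRNA. Of 257 measured, 27 were at least 1 log2 unit higher at 1 month and none at 2 months, and 6 of the 27 were above the median level. The median of all 257 was 0.10, or -0.01 after quantile normalization. Mature sequences were in RefSeq for 25 of the 27. Shown here are the 3 widest, Mir15a, which was among the 15 widest genes, and Mir9-1, a neural microRNA. The 2 others of the 25 that share a seed with one of these are also shown. The seed, bases 2 to 8 of the mature form that pair with targets, is in capitals, and positions are in GRCm38.p6.
mmu-let-7c-5p, chr16:77599672-77599693, plus strand: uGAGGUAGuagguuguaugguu
mmu-let-7f-5p, chr13:48537889-48537910, minus strand: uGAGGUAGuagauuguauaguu
mmu-miR-15a-5p, chr14:61632075-61632096, minus strand: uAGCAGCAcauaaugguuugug
mmu-miR-15b-5p, chr3:69009775-69009796, plus strand: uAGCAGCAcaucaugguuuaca
mmu-miR-99a-5p, chr16:77598940-77598961, plus strand: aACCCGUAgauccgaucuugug
mmu-miR-181b-5p, chr1:137966650-137966673, plus strand: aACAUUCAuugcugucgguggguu
mmu-miR-9-5p, chr3:88215613-88215635, plus strand: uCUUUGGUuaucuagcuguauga

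The first 2 sequences share the seed GAGGUAG and the next 2 share AGCAGCA. Mirlet7c-1 was at 7.02 at 1 month, 3.96 at 2 months, 4.35 in the cerebellum and 7.28 in the PtchLacZ/+ tumour, and Mirlet7f-1 at 5.66, 4.50, 7.26 and 5.58 in the same order. Mir15a was at 8.62, 5.79, 7.92 and 8.77, and Mir15b at 5.72, 4.39, 4.74 and 6.86. The differences were 3.06 and 1.17 for the let-7 pair and 2.83 and 1.33 for the miR-15 pair. Both pairs were formed among genes already past 1 log2 unit. The other measured let-7 genes differed by 0.08 (Mirlet7a-1) to 0.63 (Mirlet7d). Mir195a and Mir497 differed by 0.86 and -0.14. Mir99b, Mir100 and Mir9-3 differed by -0.05, 0.57 and -0.24, and the other Mir181 genes by 0.07 to 0.67. Mir99a was at 8.60, 4.99, 5.90 and 8.56. It lies beside Mirlet7c-1 on chromosome 16, and both belong to the locus of the long transcript Mir99ahg, which was at 8.93 and 6.64 in the SmoM2 tumours. Mir181b-1 was at 8.31, 4.59, 6.63 and 7.89, and Mir9-1 at 7.49, 5.31, 5.94 and 6.82. For Mirlet7c-1, Mirlet7f-1, Mir15b, Mir99a and Mir181b-1 the 2-month level was under the lower quartile, so their differences are lower limits. The host of Mir15b, Smc4, differed by 0.27, and Mir16-2 in the same host by 0.99. Dleu2, the host of Mir15a, was at 3.18 and 3.12, and Mir16-1 in that host differed by 0.13.

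Genes of chromosomes 6 and 17 were shifted as a whole. Among the 488 genes of chromosome 6 above the median level, the median difference was -0.30 relative to all autosomes, and 71.1% lay below the overall median. For the 470 such genes of chromosome 17 the values were -0.31 and 71.3%. The other 17 autosomes lay between -0.05 and 0.12. When the genes of each chromosome were divided into 8 equal runs in chromosome order, every run of chromosome 6 lay between -0.39 and -0.17 and every run of chromosome 17 between -0.45 and -0.18, against -0.21 to 0.28 on the other autosomes. Of the 233 genes above the median level that were at least 1 log2 unit higher at 2 months, 41 were on chromosome 6 and 36 on chromosome 17, and 156 were on the others. Those are 8.40% and 7.66% of the genes of these chromosomes, against at most 3.13% elsewhere.

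Against the cerebellum, and relative to all autosomes, chromosome 6 stood at -0.10 at 1 month, 0.20 at 2 months and 0.30 in the PtchLacZ/+ tumour. Chromosome 17 stood at 0.03, 0.36 and 0.01. The other autosomes lay between -0.09 and 0.07 at 1 month, -0.19 and 0.07 at 2 months, and -0.09 and 0.09 in the PtchLacZ/+ tumour. Chromosome 17 was thus raised in the 2-month tumour alone of the 3, and chromosome 6 in the 2-month and the PtchLacZ/+ tumours. Chromosome 6 was also slightly low at 1 month (-0.098), but close to chromosome 12 (-0.088), the lowest of the other autosomes. The part of the 1-month array in the chromosome 6 difference was not tested. All 3 tumours share the cerebellum array. DNA copy number was not measured. Without both chromosomes, 360 genes were at least 1 log2 unit higher at 1 month and 215 at 2 months, and the endothelial and mural medians were -1.09 and -1.02.

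**Figure D5:**
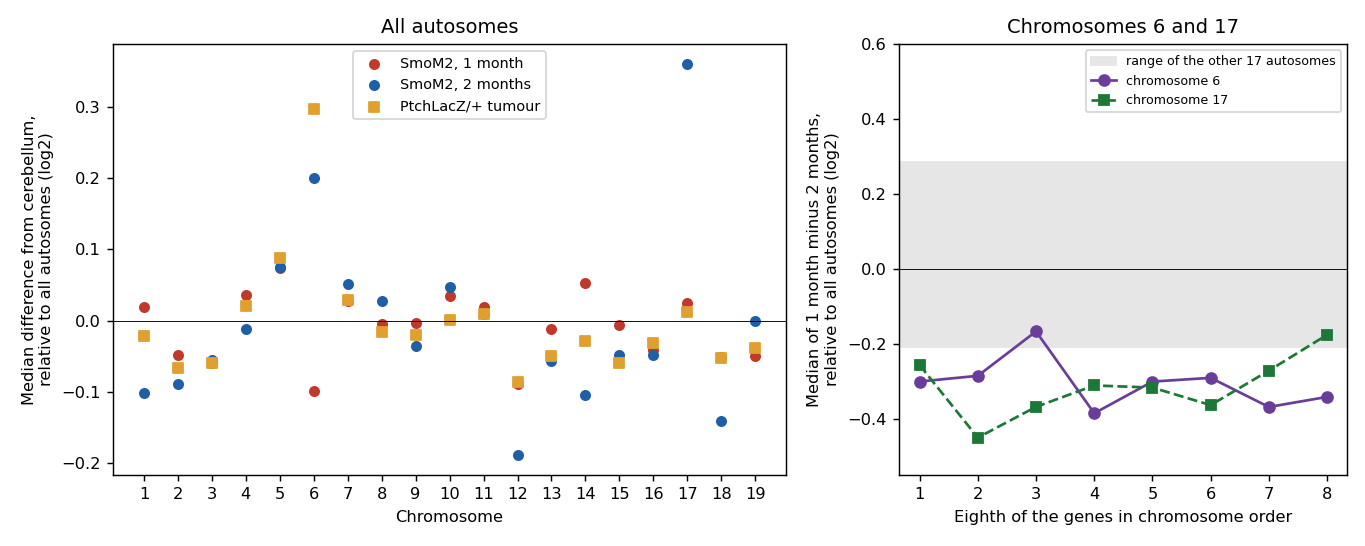
Left, median log2 difference of each tumour array from the cerebellum for the genes of each autosome above the median level, relative to all autosomes, with 1 array a point. Right, the 1-month minus 2-month difference over 8 runs of genes along chromosomes 6 and 17, all 16 of them between -0.45 and -0.17, with the range of the other autosomes in grey.

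The remaining arrays give a scale for these differences. Pearson's r over the 19103 genes was 0.990 between the 1-month SmoM2 and the PtchLacZ/+ tumour, 0.977 between the 2-month SmoM2 and the PtchLacZ/+ tumour, and 0.906 and 0.888 between the cerebellum and the SmoM2 tumours at 1 and 2 months. The 1-month tumour was thus nearer to the PtchLacZ/+ tumour of another genotype and age than to the 2-month tumour of its own genotype. Across genes, the difference between the SmoM2 tumours had a Pearson's r of 0.06 and a Spearman's rho of 0.04 with cerebellum minus PtchLacZ/+ tumour, a comparison with which it shares no array.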

How the data were processed

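Total RNA of 4 mouse samples was hybridised to Affymetrix Mouse Gene 1.0 ST arrays, 1 array each. The authors deposited 1 table of log2 values, for which the submitters' processing notes name Affymetrix Expression Console. Version, summarisation and normalization: not given in the sources used here. Array medians of 6.12 to 6.36 show a log2 scale. Values were used as deposited. Of 35557 probe sets, 21789 had a single symbol, 1621 had several and 12147 had none in the platform annotation, and 21698 matched RefSeq (GRCm38.p6) by Entrez identifier. Coordinates are those of RefSeq only, as the array table names no build. For 951 genes with several probe sets the brightest over all arrays was taken. Of the genes past 1 log2 unit, 67 had several, 6 of them with a probe set of opposite sign.

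With 1 array a side there was no test, and differences, ranks and counts past 1 log2 unit are given. The text names Smo, Ptch1, Gli1 and Atoh1, the 15 widest genes per direction above the median level, up to 3 members per direction past 1 log2 unit in each of 48 lists (or the 2 widest), defining markers, and any Hedgehog gene. A histone list had no measured member and is not analysed here. A further 4 lists and the genes marked so were chosen after values were seen, and 5 listed names matched through a synonym. Members and lists were chosen with earlier results of these data known. Alternatives were quantile normalization, median centring, loess on level and on length (span 0.3), the mean of probe sets, filters on level, added sex chromosomes, and leaving out chromosomes 6 and 17. The code was tested on simulated data. Python 3.11.15, NumPy 2.4.6, pandas 2.3.3, SciPy 1.17.1, statsmodels 0.14.6 and matplotlib 3.10.9 were used.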

Additional observations from a re-analysis of the deposited data

Results flagged for a closer look

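Probe sets outside the comparison carried a signal at 1 month. Of the 13768 probe sets with no symbol or with several, 2597 (18.9%) were at least 1 log2 unit higher at 1 month and 254 (1.84%) at 2 months, against 1.98% and 1.65% of autosomal genes. Most were among the 12147 with no symbol, of which 2533 were higher at 1 month and 236 at 2 months. Their median level was 5.72 at 1 month, 5.08 at 2 months, 5.44 in the cerebellum and 5.70 in the PtchLacZ/+ tumour, so the 2-month array was the lowest of the 4. What these probe sets detect was not analysed here.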

How the results depend on the processing

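All 34 genes named by the design or by the rule of the 15 widest kept their direction under every alternative in which they were measured, as did chromosomes 6 and 17, whose relative medians were -0.08 and -0.12 with no filter on level. Of 51 list medians, 14 had another sign in some alternative, all of them between -0.18 and 0.10 as deposited. Genes at least 1 log2 unit higher at 2 months numbered 203 after loess on level, against 316 as deposited, while 529 were higher at 1 month, against 379. The counts at 1 and 2 months were 341 and 442 after quantile normalization, 450 and 241 after median centring, 362 and 219 after loess on gene length, and 281 and 233 above the median level. Of the 379 and 316 genes, 322 and 291 stayed past the mark after quantile normalization and 307 and 195 after loess on length. With only genes above the median level, the list medians went to 0.80 for neutrophils and monocytes, -0.62 for erythroid genes, 0.68 for olfactory receptors and 2.24 for nuclear long noncoding RNAs. This last median went to 0.87 without chromosomes 6 and 17. In each case fewer members were left. The loess on length and the removal of chromosomes 6 and 17 were chosen after seeing the data. No paired analysis was possible because each group had 1 array. The number of arrays limits the precision, and low levels limit the differences that can be read.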

Other observations

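The sex-linked transcripts gave an unusual reading in the array shown for reference. In the PtchLacZ/+ tumour, Xist was at 4.61 and the Y-linked genes Eif2s3y, Uty and Kdm5d were at 3.48, 3.76 and 3.91, all under the lower quartile of 5.18. In the cerebellum, Xist was at 4.91 and the same genes were at 8.46, 8.68 and 6.97.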
